A study of Mus musculus with 15 samples.

Results

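The 10 genes described here build and arm the osteoclast, the bone-resorbing cell. They are the receptors and adhesion subunit *Tnfrsf11a*, *Oscar*, *Calcr* and *Itgb3*, the transcription factor *Nfatc1*, the fusion proteins *Dcstamp* and *Ocstamp*, the proton pump subunit *Atp6v0d2* and the enzymes *Ctsk* and *Acp5*. They were taken by name from a count table of 54232 genes, as a set drawn up with earlier results of these data known, and all 10 were among the 22151 genes left for testing by a filter on low counts. *Dcstamp* and *Ocstamp*, with at most 15 counts in any E13.5 or E14.5 library, passed that filter through the later stages.

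The tissue was the secondary palate of wild-type mice, with no treatment or other allele named in the labels. Sampling was daily on embryonic days 13.5, 14.5, 15.5 and 16.5, written as E with the day, and then on the day of birth (P0). Each stage had 3 libraries, and each library held the palates of 3 embryos, so the p-values measure the spread between such pools. The bulk RNA came from dissected shelves with all their cell types. Totals ran from 21470759 to 69019565 counts per library, where 3 counts correspond to 0.131 and 0.0421 CPM (counts per 1000000 counts of the library's TMM-adjusted total). The 6 palate mesenchyme markers (*Pax9*, *Osr2*, *Msx1*, *Tbx22*, *Meox2* and *Shox2*) were detected in every library, with a summed level between 93.3 and 360 CPM. Summed counts of 4 Y-linked genes were between 0.151 and 0.332 CPM in all 3 E16.5 libraries and between 55.2 and 190 CPM in 9 libraries of other stages. All E14.5 libraries were among those 9, so at E16.5 against E14.5 stage and the sex of the pooled embryos cannot be told apart. E13.5 replicate 1 (0.401 CPM), E15.5 replicate 1 (0.337 CPM) and P0 replicate 2 (0.457 CPM) were low as well. Comparisons of E16.5 with E15.5 and P0 are thus confounded with sex in part, and the part of sex was not tested.

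Osteoclasts form by fusion of precursors of the monocyte and macrophage lineage. The cytokine RANKL, made by osteoblast-lineage and other stromal cells, binds RANK on the precursor, and co-stimulatory receptors such as OSCAR add a calcium signal that activates NFATc1. NFATc1 then drives genes for cell fusion, for the vacuolar proton pump that acidifies the bone surface, and for the enzymes that digest bone matrix. The palatal shelves meet and fuse in the midline and then ossify, and osteoclasts are known to remodel such young membrane bone.

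The genes of fusion, acid secretion and matrix digestion rose between E14.5 and E16.5, those of fusion from levels close to the detection limit and *Ctsk* from a level well above it. *Acp5* went from 3.59 ± 1.37 to 365 ± 106 CPM (SD, n = 3), *Ctsk* from 23.6 ± 10.8 to 664 ± 222 CPM and *Atp6v0d2* from 0.406 ± 0.171 to 34.1 ± 16.6 CPM. The RANK gene *Tnfrsf11a* rose less, from 2.21 ± 0.0934 to 8.89 ± 1.77 CPM, and *Nfatc1* went from 21.2 ± 9.69 to 52.9 ± 16.2 CPM. *Calcr* was the exception, with its highest mean, 8.14 ± 2.2 CPM, at E14.5. Over the E16.5 against E14.5 comparison 9 of the 10 genes passed the edgeR quasi-likelihood test upwards (adjusted p under 0.05, Benjamini-Hochberg), where 46.2% of all tested genes passed in either direction and 23.4% upwards. Every E16.5 library lay above every E14.5 library in the same 9 genes, as in 29.2% of tested genes. The median log2 fold change of the 10 genes was 4.40, beside -0.01 for all tested genes.

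**Figure D1:**
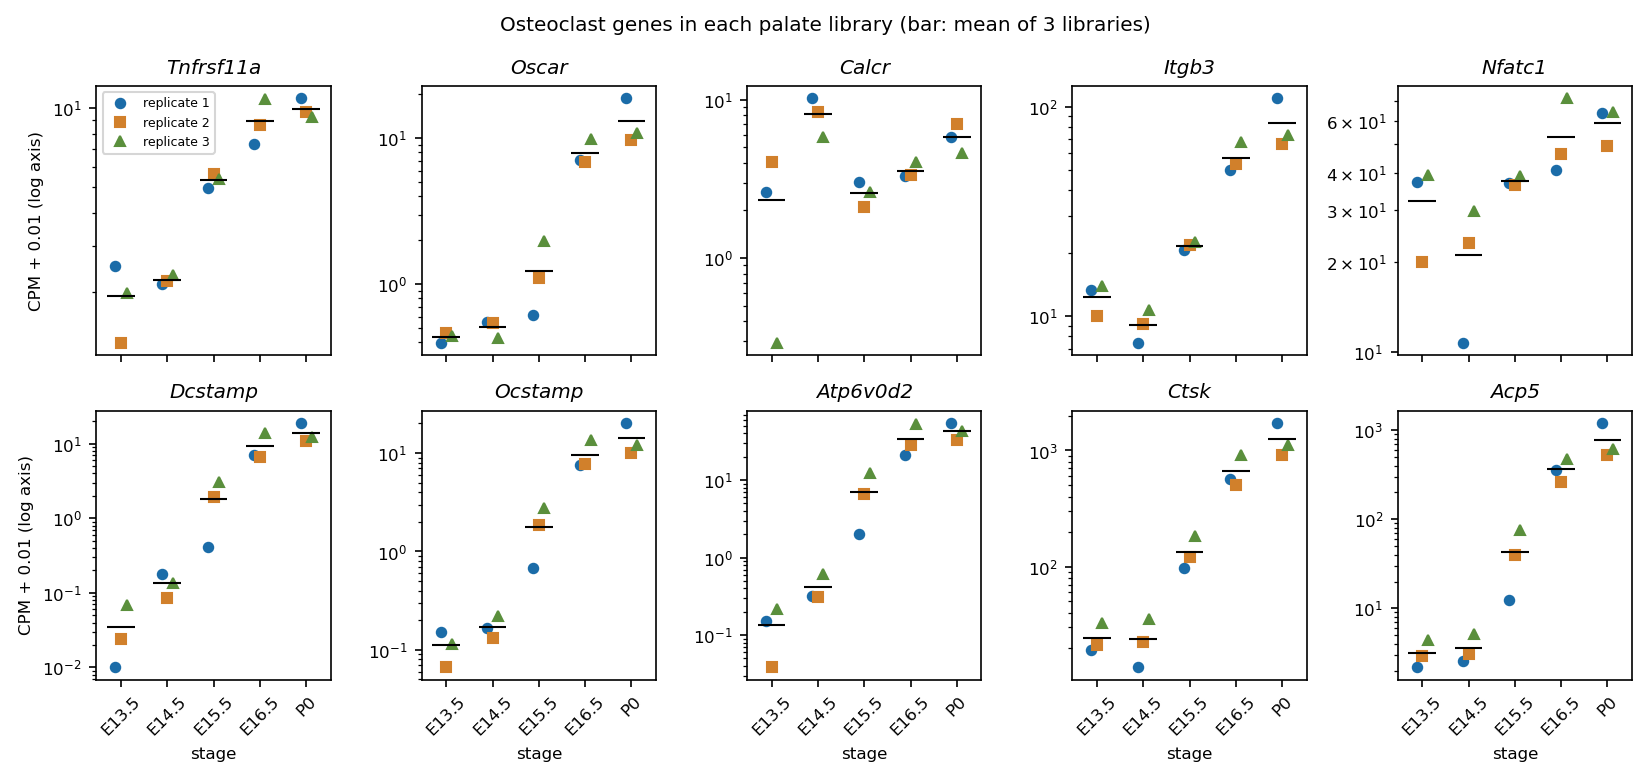
Level of each of the 10 genes in each library, in CPM plus 0.01 on a log axis that differs between panels, against stage. Each point is 1 library, with 1 symbol per replicate number, and the bar is the mean of 3. Apart from *Calcr*, every E16.5 library lies above all E14.5 libraries in its panel.

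Promoter sequence was searched for binding sites of osteoclast transcription factors. It is shown for the 3 genes with a match, so the windows below were picked for holding one. The set of RefSeq promoter entries (GRCm38.p6) used here listed a start for 5 of the 10 genes, *Tnfrsf11a*, *Oscar*, *Calcr*, *Ctsk* and *Acp5*. The other 5 had no entry in that set and were not searched. The 250 bases before each listed start were searched on both strands for 5 motifs. They were the core GAGGAA bound by PU.1, the core TGGAAA bound by NFAT, the AP-1 site TGANTCA, the E-box TCATGTG bound by MITF and the E-box CACGTG. Capitals mark the matches, and a match on the other strand is printed as its reverse complement. No match overlaps another.
Ctsk, chr3:95498960-95499209, plus strand: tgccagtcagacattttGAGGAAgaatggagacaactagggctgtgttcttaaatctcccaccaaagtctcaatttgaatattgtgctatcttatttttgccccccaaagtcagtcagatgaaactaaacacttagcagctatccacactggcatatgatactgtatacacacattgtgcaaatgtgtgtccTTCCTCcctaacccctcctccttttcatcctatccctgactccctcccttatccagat
Oscar, chr7:3616158-3616407, minus strand: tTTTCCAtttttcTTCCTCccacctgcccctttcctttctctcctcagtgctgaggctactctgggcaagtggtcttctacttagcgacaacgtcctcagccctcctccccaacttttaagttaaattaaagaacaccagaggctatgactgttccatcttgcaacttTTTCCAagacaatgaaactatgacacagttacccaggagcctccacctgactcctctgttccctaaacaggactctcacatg
Acp5, chr9:22130599-22130848, minus strand: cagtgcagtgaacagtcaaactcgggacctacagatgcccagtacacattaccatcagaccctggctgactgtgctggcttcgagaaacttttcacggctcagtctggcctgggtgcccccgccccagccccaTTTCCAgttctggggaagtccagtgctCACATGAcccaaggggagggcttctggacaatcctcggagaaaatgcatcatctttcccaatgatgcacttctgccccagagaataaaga
*Ctsk* held 2 PU.1 cores, *Oscar* 1 PU.1 core and 2 NFAT cores, and *Acp5* 1 NFAT core and 1 MITF E-box. The *Acp5* window belongs to the most downstream of its 3 listed starts and lies inside the gene, with its last 10 bases in an exon. The windows of the other 2 *Acp5* starts, of *Tnfrsf11a* and of both *Calcr* starts held none of the 5 motifs. Of 32851 RefSeq windows of this length, 23.3% held the PU.1 core, 18.6% the NFAT core, 6.75% the AP-1 site, 3.25% the MITF E-box and 6.02% the other E-box. The matches are a description of letters, and binding was not measured.

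*Tnfrsf11a* (ENSMUSG00000026321.7, chromosome 1, 105780718 to 105847981, GRCm38 as for all positions here) encodes RANK, the receptor through which precursors commit to the osteoclast fate. Its level in replicates 1, 2 and 3 was 2.51, 1.27 and 1.98 CPM at E13.5, 2.13, 2.19 and 2.32 at E14.5, 4.95, 5.59 and 5.38 at E15.5, 7.29, 8.6 and 10.8 at E16.5, and 10.9, 9.63 and 9.27 at P0. The E13.5 and E14.5 libraries overlapped, every E15.5 library lay above them, and every E16.5 library lay above those. The log2 fold change of E16.5 over E14.5 was 2.00 (SE 0.237, edgeR adjusted p 0.000113).

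*Oscar* (ENSMUSG00000054594.13, chromosome 7, 3609813 to 3616157) encodes a collagen-binding receptor that signals through an immunoreceptor adaptor. It stood at 0.387, 0.451 and 0.431 CPM at E13.5, 0.545, 0.53 and 0.421 at E14.5, 0.607, 1.09 and 1.98 at E15.5, 7.12, 6.86 and 9.93 at E16.5, and 18.8, 9.66 and 10.9 at P0. Its log2 fold change was larger in the later of the middle 2 steps, without passing the test of that difference. From E14.5 to E15.5 the log2 fold change was 1.30 (SE 0.383, edgeR adjusted p 0.0269), and from E15.5 to E16.5 it was 2.70 (SE 0.387, edgeR adjusted p 0.0224), but the difference between both steps, 1.40 (SE 0.663), had an edgeR adjusted p of 0.305. The ratio of *Oscar* to *Tnfrsf11a*, both in CPM per kb of gene length, was 0.733 ± 0.127 (SD, n = 3) at E14.5 and 0.739 ± 0.408 a day later. It was then 2.91 ± 0.298 at E16.5 and 4.22 ± 1.23 at birth. The 3 E15.5 ratios were 0.396, 0.631 and 1.19, all below the lowest E16.5 ratio of 2.58. Ratios between the genes, here and below, were not among the planned comparisons and were not tested.

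*Itgb3* (ENSMUSG00000020689.4, chromosome 11, 104608000 to 104670476) encodes the beta 3 integrin subunit, with which osteoclasts attach to bone and which platelets also carry. Its libraries held 13.3, 9.98 and 13.9 CPM at E13.5, 7.44, 9.14 and 10.7 at E14.5, 20.8, 21.9 and 22.5 at E15.5, 50.1, 53.3 and 68.1 at E16.5, and 110, 66.8 and 73.3 at P0. It rose by a similar log2 fold change in both middle steps, 1.26 (SE 0.21, edgeR adjusted p 0.00218) and 1.39 (SE 0.21, edgeR adjusted p 0.0224). The 5 megakaryocyte and platelet markers summed to 15 to 21 CPM at E13.5, 7.51 to 10.9 at E14.5 and 17.4 to 21 at E15.5. Their sum was 20.4 to 38.4 CPM at E16.5 and 33.2 to 43.6 at P0. The list's median log2 fold change was -0.02 from E14.5 to E15.5 and -0.17 from E15.5 to E16.5, with 2 of 5 positive in each step. No marker of this list was at 0 in any library, and 1 of 5 rose from E14.5 to E16.5. The part of these cells in the *Itgb3* values was not tested.

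*Calcr* (ENSMUSG00000023964.15, chromosome 6, 3685680 to 3764714) encodes the calcitonin receptor, through which calcitonin halts resorption by mature osteoclasts, and which neurons and muscle satellite cells also use. It was the only one of the 10 without a call in any comparison of stages, and 9 of 10 passed the edgeR test over all 5 stages together, as 59.1% of tested genes did. Its values were 2.61, 4.04 and 0.282 CPM at E13.5, 10.2, 8.37 and 5.84 at E14.5, 3.02, 2.09 and 2.6 at E15.5, 3.28, 3.32 and 4.01 at E16.5, and 5.77, 6.98 and 4.57 at P0. All E14.5 libraries lay above all libraries of E13.5, E15.5 and E16.5, and E13.5 replicate 3 (19 counts) lay far below the other E13.5 pools (182 and 287 counts). The log2 fold change was 1.82 from E13.5 to E14.5 (SE 0.608, edgeR adjusted p 0.204) and -1.66 from E14.5 to E15.5 (SE 0.605, edgeR adjusted p 0.0593). The latter passed with DESeq2 (adjusted p 0.0234) and when the libraries of these stages alone were fitted (edgeR adjusted p 0.0106). The 4 neuronal markers were also highest at E14.5, with a summed level of 1420 to 3087 CPM beside 611 to 1809 at E13.5 and 620 to 1333 at E15.5. Of these markers 1 of 4 fell from E14.5 to E15.5 (*Tubb3*, a neuronal tubulin, log2 fold change -1.57, edgeR adjusted p 0.031), none was at 0 in any library, and their part in the *Calcr* values was not tested.

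*Nfatc1* (ENSMUSG00000033016.15, chromosome 18, 80606205 to 80713071) encodes the transcription factor at the centre of osteoclast differentiation, which also acts in endocardial and endothelial cells. Its range over the stages was narrow. It measured 37.3, 20.1 and 39.3 CPM at E13.5, 10.7, 23.3 and 29.7 at E14.5, 37, 36.4 and 39 at E15.5, 41, 46.3 and 71.4 at E16.5, and 63.5, 49.2 and 64.4 at P0. At E13.5, 2 of the 3 libraries lay near the E15.5 level and replicate 2 lay near the E14.5 level, and every E16.5 and P0 library lay above every E13.5 and E14.5 library. The log2 fold change was 0.82 for E15.5 against E14.5 (SE 0.341, edgeR adjusted p 0.0934), 1.32 for E16.5 against E14.5 (SE 0.344, edgeR adjusted p 0.00833) and 0.87 for P0 against E13.5 (SE 0.341, edgeR adjusted p 0.0436). The last of these held in 2 of 6 leave-one-out fits, with adjusted p between 0.0445 and 0.165.

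*Dcstamp* (ENSMUSG00000022303.9, chromosome 15, 39745930 to 39760938) and *Ocstamp* (ENSMUSG00000027670.4, chromosome 2, 165393760 to 165400405) encode transmembrane proteins that precursors need in order to fuse. *Dcstamp* had 0, 1 and 4 counts in the E13.5 libraries and 11, 5 and 9 at E14.5, so its early levels lie at the detection limit. It then measured 0.404, 1.92 and 3.06 CPM at E15.5, 7.01, 6.67 and 13.9 at E16.5, and 19.1, 11 and 12.3 at P0. *Ocstamp* measured 0.143, 0.0563 and 0.104 CPM at E13.5, 0.156, 0.121 and 0.211 at E14.5, 0.674, 1.85 and 2.78 at E15.5, 7.59, 7.8 and 13.5 at E16.5, and 20.3, 9.94 and 12.1 at P0. Their per kb ratio, *Dcstamp* over *Ocstamp*, was 0.376 ± 0.394 (SD, n = 3) in the E13.5 libraries, where it rests on 5 summed *Dcstamp* counts, 1.06 ± 0.387 at E14.5 and 1.26 ± 0.376 a day later, and then 1.28 ± 0.122 at E16.5 and 1.4 ± 0.117 at birth. The log2 fold changes of E16.5 over E14.5 were 6.18 for *Dcstamp* (SE 0.794, edgeR adjusted p 0.000159) and 5.86 for *Ocstamp* (SE 0.576, edgeR adjusted p 4.09e-05). In summed counts scaled to depth, *Dcstamp* at E16.5 was 74.1 times its level at E14.5, with an exact 95% interval of 49.9 to 115 that covers counting error alone (1134 against 25 counts). The same ratio for *Ocstamp* was 58.7 (interval 41.5 to 85.6, 1185 against 33 counts).

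*Atp6v0d2* (ENSMUSG00000028238.6, chromosome 4, 19876841 to 19922605) encodes the d2 subunit of the vacuolar proton pump, which osteoclasts use for acid secretion and for fusion. It measured 0.143, 0.0282 and 0.208 CPM at E13.5, 0.311, 0.303 and 0.604 at E14.5, 1.99, 6.63 and 12.3 at E15.5, 21.3, 28.1 and 52.8 at E16.5, and 54.8, 32.5 and 42.6 at P0. All E14.5 libraries lay above all E13.5 libraries (83 against 26 summed counts, ratio 3.3, exact 95% counting interval 2.1 to 5.34), but the log2 fold change of 1.68 (SE 0.74) had an edgeR adjusted p of 0.294. At 4.09 (SE 0.678, edgeR adjusted p 0.00212) its log2 fold change from E14.5 to E15.5 was the highest of the 10 genes in that step. The E15.5 pools differed by several-fold, and the highest of them stayed below the lowest E16.5 pool.

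*Ctsk* (ENSMUSG00000028111.4, chromosome 3, 95499256 to 95509362) encodes cathepsin K, the protease that cuts bone collagen. Its values were 19.2, 21 and 32.3 CPM at E13.5, 13.5, 22.3 and 35.1 at E14.5, 96.6, 122 and 185 at E15.5, 569, 505 and 917 at E16.5, and 1732, 921 and 1111 at P0. *Acp5* (ENSMUSG00000001348.15, chromosome 9, 22126727 to 22135711) encodes tartrate-resistant acid phosphatase, the enzyme stained to identify osteoclasts. It stood at 2.16, 2.89 and 4.41 CPM at E13.5, 2.57, 3.06 and 5.15 at E14.5, 12.4, 39.4 and 75.3 at E15.5, 359, 262 and 473 at E16.5, and 1211, 527 and 616 at P0. For both genes the libraries of neighbouring stages did not overlap from E14.5 on. The log2 fold change of E16.5 over E14.5 was 4.81 for *Ctsk* (SE 0.443, edgeR adjusted p 2.73e-05) and 6.66 for *Acp5* (SE 0.684, edgeR adjusted p 5.33e-05), the highest of the 10 genes.

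*Acp5* gained on *Ctsk* over time. The ratio of *Acp5* to *Ctsk* in CPM per kb was 0.0959 ± 0.0101 (SD, n = 3) in the E13.5 libraries and 0.118 ± 0.0214 a day later. It was 0.213 ± 0.107 at E15.5, then 0.414 ± 0.0493 a day later and 0.453 ± 0.0589 at birth. The E15.5 pools stood at 0.0951, 0.24 and 0.304, so replicate 1 had the ratio of the earlier stages and the other pools lay between the earlier and later ones. The ratios of E16.5 (0.384 to 0.471) and P0 (0.412 to 0.52) overlapped.

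Levels per kb of gene length showed which of the 10 transcripts dominated. *Ctsk* was the highest at every stage, with 16 CPM per kb at E13.5 and 830 at P0, and at no stage did its libraries overlap with those of the gene next in order. *Nfatc1* was next at E13.5 and E14.5 (4.34 and 2.86 CPM per kb), and *Acp5* took that place from E15.5 on (20.9, 180 and 386 CPM per kb at E15.5, E16.5 and P0). At E16.5 *Atp6v0d2* (12.5 CPM per kb), *Itgb3* (9.69) and *Nfatc1* (7.12) followed, and neighbours among these overlapped. *Oscar* (4.31), *Dcstamp* (3.45) and *Ocstamp* (2.63) came next and also overlapped with their neighbours, above *Tnfrsf11a* (1.49) and *Calcr* (0.904), which did not. The share of the summed CPM per kb of all 10 genes that came from *Ctsk* and *Acp5* was 68.7% ± 6.75 (SD, n = 3) at E14.5 and 93.6% ± 0.853 at E16.5.

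Set out by day, the change of these genes was confined to the middle 2 steps in the calls made. From E13.5 to E14.5, 0 of 10 passed the edgeR test, where 0.00903% of tested genes did, with 3 at an unadjusted p under 0.05 (*Calcr*, *Dcstamp* and *Atp6v0d2*; 16% of tested genes) and 0 by DESeq2. In those 3 every E14.5 library lay above every E13.5 library, as in 15.6% of tested genes. From E14.5 to E15.5, 8 of 10 rose and 0 fell, where 26.1% of tested genes passed in either direction and 12.7% upwards. The 8 had log2 fold changes between 1.26 and 4.09, and *Calcr* and *Nfatc1* were the other genes. From E15.5 to E16.5, 5 of 10 rose and 0 fell, where 1.41% of tested genes passed in either direction and 1.03% upwards. They were *Acp5* (log2 fold change 3.11), *Oscar* (2.70), *Ocstamp* (2.44), *Ctsk* (2.30) and *Itgb3* (1.39). *Dcstamp* (2.35, edgeR adjusted p 0.0802) and *Atp6v0d2* (2.29, edgeR adjusted p 0.0744) had values of the same size and did not pass. From E16.5 to P0, 0 of 10 passed, where 0.352% of tested genes did, with 2 at an unadjusted p under 0.05 (*Itgb3* and *Ctsk*; 11.7% of tested genes) and 0 by DESeq2. All 10 log2 fold changes in that last step were above 0, from 0.16 to 1.11. Taking the ends of the series, 9 of 10 rose from E13.5 to P0, where 56.6% of tested genes passed in either direction and 29.8% upwards.

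**Figure D2:**
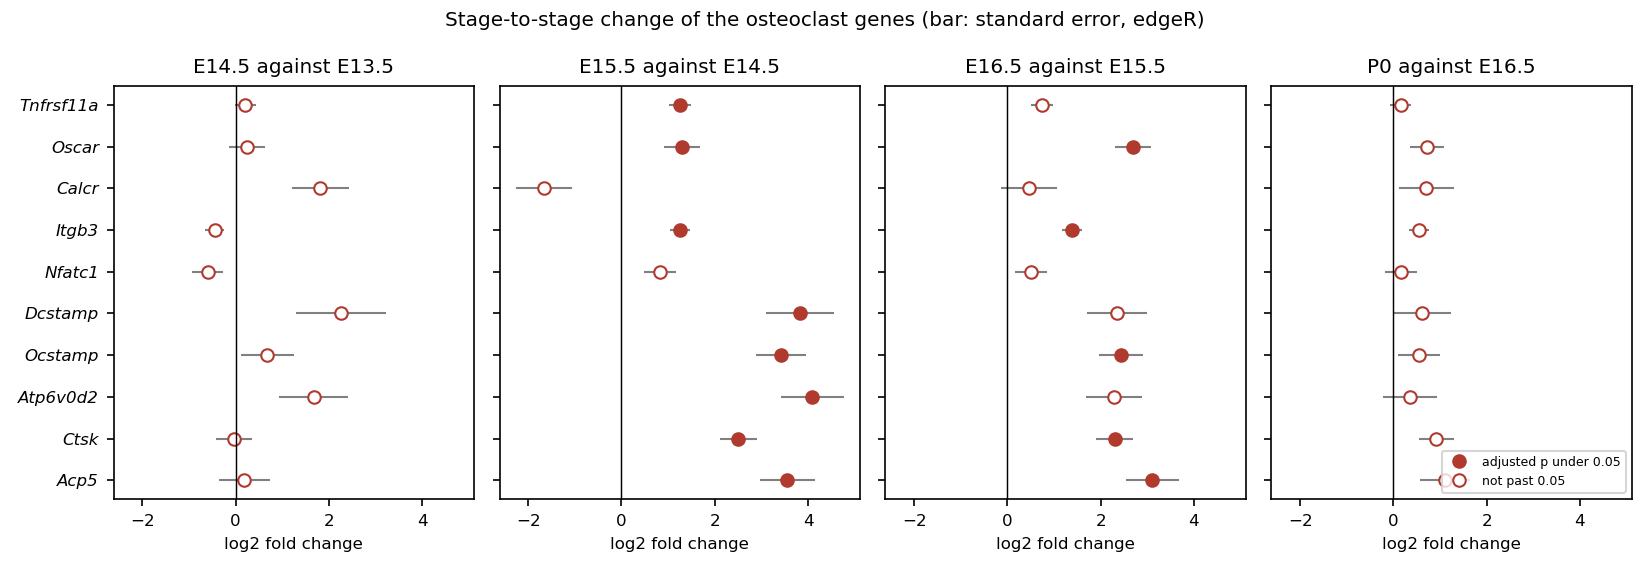
log2 fold change of each gene (points) with its standard error (bars) in the 4 steps between neighbouring stages, from the edgeR fit over all 15 libraries. Filled points passed an adjusted p of 0.05, as 8 genes did at E15.5 against E14.5, 5 at E16.5 against E15.5 and none in the outer steps.

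No overlap between the libraries of neighbouring stages was seen for all 10 genes at E15.5 against E14.5 (9 above and *Calcr* below), where 51.3% of tested genes had none (24% above and 27.3% below), and for all 10 at E16.5 against E15.5, each above, where 31.2% had none and 15.7% had every later library above. At P0 against E16.5 it held for *Calcr*, *Ctsk* and *Acp5*, where 11.6% of tested genes had none. The size of the middle 2 steps did not differ in any of the 10 genes by the edgeR test of their difference (0 of 10, 0.939% of tested genes), with 0 at an unadjusted p under 0.05 (16.8% of tested genes) and 0 by DESeq2.

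The calls at E16.5 against E15.5 changed with the libraries fitted. The 5 calls became 2, 0 and 1 without E15.5 replicates 1, 2 and 3, and 0, 3 and 4 without E16.5 replicates 1, 2 and 3. Over all tested genes the 312 calls became 78, 0 and 2 and then 1, 65 and 504 in the same fits. With only the libraries of these 2 stages fitted, 0 of 20218 tested genes passed, among them 0 of the 10, while the log2 fold changes of *Acp5* (3.12), *Oscar* (2.70) and *Ctsk* (2.31) were within 0.01 of those above. DESeq2 called 8 of the 10 and 1981 of 37998 genes. In the step before, *Oscar* passed in 1 of 6 fits that left out a library, the one without E15.5 replicate 1 (edgeR adjusted p from 0.00773 to 0.15 over the 6), and its log2 fold change fell to 0.76 without E15.5 replicate 3. All 9 calls at E16.5 against E14.5 held in each of the 6 fits without 1 library. With upper-quartile scaling the median log2 fold change of all tested genes at E15.5 against E14.5 moved from 0.03 to 0.16 and the calls from 2803 higher and 2970 lower to 3424 and 2007. The directions of the 10 genes in that step did not change with it.

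The pools of a stage differed together in these genes. E15.5 replicate 1 had the lowest value of its stage in 8 of the 10 genes and E15.5 replicate 3 the highest in 8, while E16.5 replicate 3 was highest in 10 of 10 and P0 replicate 1 in 8. After the stage mean was subtracted from log2 CPM, Pearson r over the 15 libraries had a median of 0.59 over the 45 gene pairs. Among *Ctsk*, *Acp5*, *Atp6v0d2*, *Dcstamp*, *Ocstamp* and *Oscar* the 15 pairs had r from 0.56 to 0.92, the highest for *Ocstamp* with *Atp6v0d2*. *Calcr* stood apart, with r between -0.48 and 0.00 in its 9 pairs, and *Nfatc1* had r from 0.06 to 0.79 with the other 8. These are descriptions over libraries that share depth and tissue composition. The same ranks and pairwise r were not taken over all tested genes, so whether such co-variation is particular to the 10 genes was not tested. E15.5 replicate 1 was also 1 of 3 pools outside E16.5 with Y-linked counts near 0, with E13.5 replicate 1 and P0 replicate 2.

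**Figure D3:**
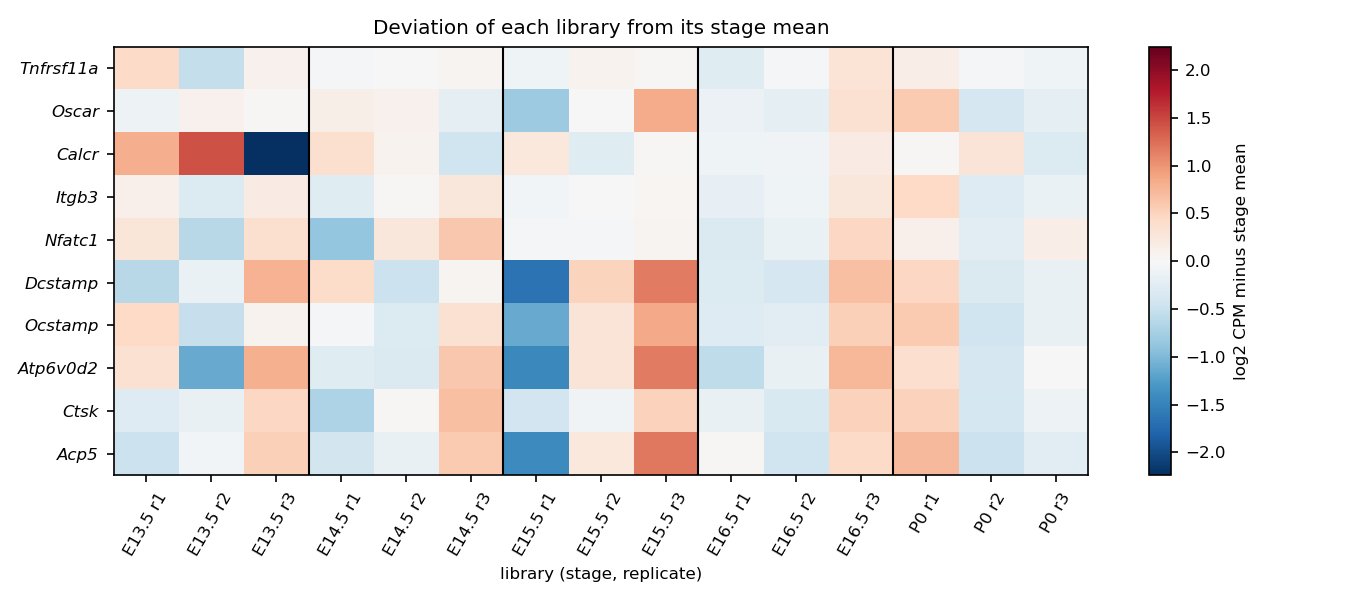
Deviation of log2 CPM from the stage mean for each gene (rows) in each library (columns; r is the replicate number, lines part the stages). Red is above and blue below the stage mean. At E15.5 replicate 1 is low and replicate 3 high in *Acp5*, *Atp6v0d2*, *Dcstamp*, *Ocstamp* and *Oscar*, and the *Calcr* row is lowest at E13.5 replicate 3.

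Markers of the lineages around the osteoclast moved on different scales. In bulk tissue, more cells of a type and more RNA per cell cannot be told apart. The 12 macrophage markers, which cover the lineage osteoclasts come from, summed to 103 to 152 CPM at E14.5, 207 to 227 at E15.5, 220 to 336 at E16.5 and 308 to 377 at P0. From E14.5 to E15.5, 6 of 12 rose, from *Cd163* (a scavenger receptor, log2 fold change 3.89 from 22 summed counts at E14.5, which passed the filter through the later stages) to *C1qc* (a complement subunit, 0.78), and from E15.5 to E16.5 1 rose, *Cd68* (a lysosomal protein, 1.51), with a list median of 0.25 beside 2.29 for the 10 osteoclast genes and 0.00 for all tested genes. Per 1000 CPM of the summed macrophage markers, *Acp5* had 28.4 ± 7.99 CPM (SD, n = 3) at E13.5, 27.9 ± 5.19 in the E14.5 libraries and 199 ± 156 a day later, then 1343 ± 375 at E16.5 and 2294 ± 810 at birth. *Nfatc1* on the same scale was 284 ± 48 at E13.5 and then 163 ± 51.5, 172 ± 14.4, 200 ± 73.1 and 178 ± 27.7. Its E13.5 libraries (235 to 331) lay above all of E14.5, E15.5 and P0, and the 4 later stages overlapped. *Tnfrsf11a* was 17.1 ± 4.42, 17.9 ± 2.72, 24.3 ± 2.22, 33.7 ± 10.4 and 29.9 ± 0.868 over the 5 stages. The 3 pan-haematopoietic markers summed to 61.6 to 70 CPM at E14.5 and 94.3 to 101 at E16.5, and 2 of 3 rose from E14.5 to E15.5 (*Ptprc*, 0.84, and *Laptm5*, 0.79).

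Osteoblast markers were called in the first of the middle 2 steps. The 8 osteoblast markers summed to 1026 to 2214 CPM at E14.5, 14185 to 16430 at E15.5 and 15035 to 21121 at E16.5. Most of this sum was *Col1a1*, with a mean of 13592 of 15680 CPM at E15.5 and 14591 of 17577 CPM at E16.5. From E14.5 to E15.5, 7 of 8 rose, from *Dmp1* (a matrix protein of osteocytes, log2 fold change 5.53) to *Sp7* (an osteoblast transcription factor, 2.07), with a median of 2.80. From E15.5 to E16.5 0 of 8 passed the edgeR test, where 1.41% of tested genes did. An unadjusted p under 0.05 was seen in 2 of 8, and in 21.8% of tested genes. Of the 8 log2 fold changes 5 were positive, with a median of 0.11 and a range from -0.51 to 1.83. In that step the mean of *Spp1* went from 313 to 1113 CPM and that of *Runx2* from 71.4 to 50 CPM. In the edgeR test of the difference between both steps, 2 of 8 had a smaller later step, *Dmp1* (-4.72, adjusted p 0.00312) and *Col1a1* (a bone collagen chain, -3.07, adjusted p 0.0205), with 8 of 8 at an unadjusted p under 0.05 and a median of -2.77. For the 10 osteoclast genes that test gave 0 calls, and the difference between the lists was not tested. Within stages, r over the 15 libraries with the mean log2 CPM of the osteoblast markers ran from 0.50 (*Oscar*) to 0.86 (*Ctsk*) in 9 of the genes and was -0.58 for *Calcr*. With the log2 of the markers' summed CPM, a measure added after the data were seen, the 9 ran from 0.22 (*Dcstamp*) to 0.87 (*Ctsk*), with 0.43 in place of 0.78 for *Atp6v0d2*. Other lists varied with single genes too, such as palate mesenchyme (0.69) and stratified epithelial markers (0.68) with *Atp6v0d2* and cartilage markers (0.63) with *Nfatc1*, by mean log2 CPM. No marker of the macrophage, haematopoietic or osteoblast lists was at 0 in any library, and the part of these cells in the osteoclast values was not tested.

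**Figure D4:**
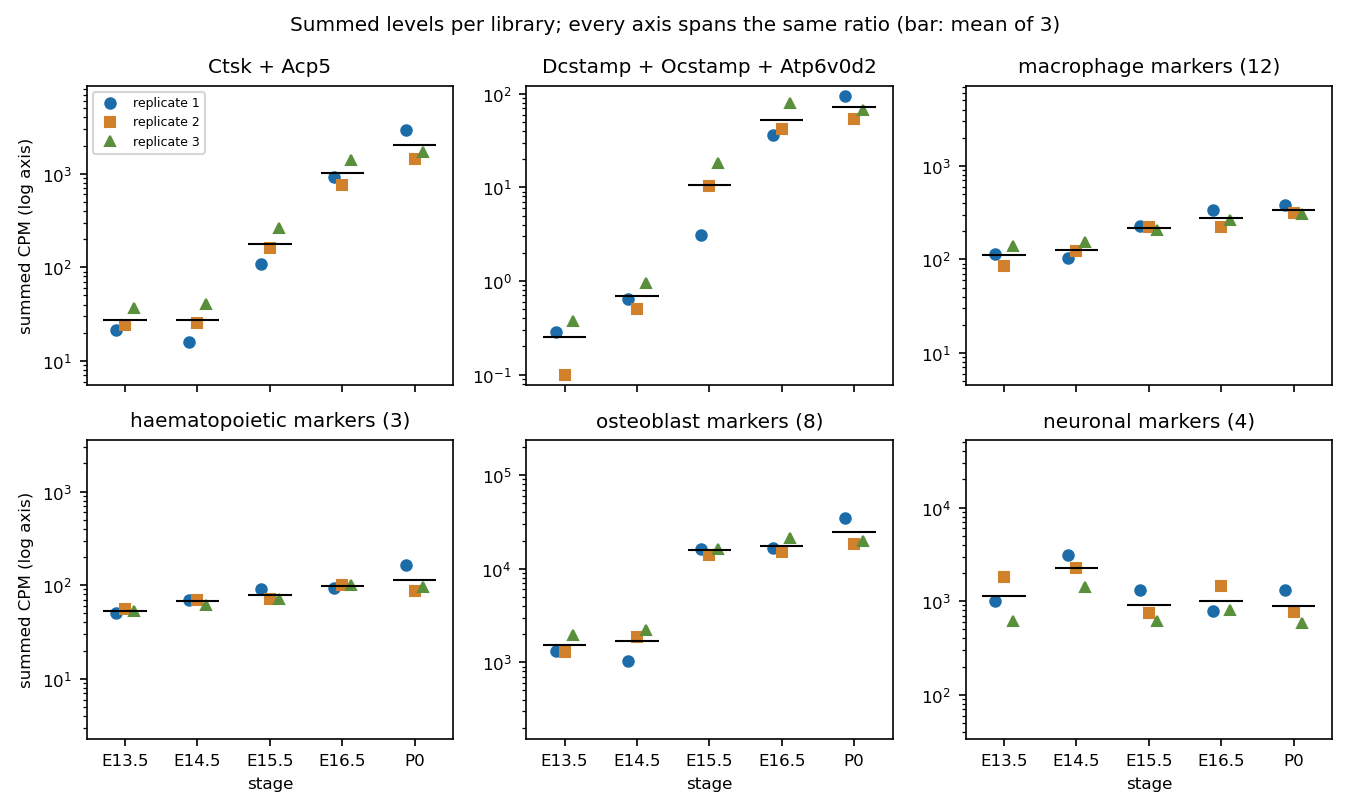
Summed CPM (log axis) of *Ctsk* and *Acp5*, of *Dcstamp*, *Ocstamp* and *Atp6v0d2*, and of 4 marker lists in each library against stage. Points are libraries, bars are means of 3, and every panel spans the same ratio from bottom to top. Osteoblast markers lie at 14185 to 16430 CPM at E15.5 and at 15035 to 21121 CPM at E16.5, while *Ctsk* and *Acp5* go from 109 to 260 CPM at E15.5 to 767 to 1389 CPM at E16.5. Most of the osteoblast sum is *Col1a1* (mean 13592 CPM at E15.5 and 14591 CPM at E16.5).

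The other genes of the pathway were counted from lists. The 4 ligands and decoys are RANKL (*Tnfsf11*), its decoy receptor OPG (*Tnfrsf11b*), and the CSF-1 receptor ligands *Csf1* and *Il34*. From E14.5 to E15.5, 2 of 4 rose, *Tnfsf11* (0.742 to 2.46 CPM, log2 fold change 1.72, edgeR adjusted p 0.00607) and *Csf1* (20.5 to 40.9 CPM, 1.00, edgeR adjusted p 0.00209), and all 4 rose from E14.5 to E16.5 with a median of 1.85. Those 2 calls of the first step held in all 6 fits without 1 library. Of the 6 co-stimulatory and precursor receptors, 5 rose from E14.5 to E15.5 (1 to 5 in the 6 fits without 1 library, 1 without E14.5 replicate 1 and 3 without E14.5 replicate 2 or E15.5 replicate 2 or 3). They ran from *Siglec15* (a sialic acid receptor of osteoclasts, 0.0489 to 0.33 CPM, 2.70, from 10 summed counts at the detection limit at E14.5, which passed the filter through the later stages) to *Csf1r* (the CSF-1 receptor, 33 to 58.9 CPM, 0.84). From E15.5 to E16.5 1 of 6 rose, *Tyrobp* (the adaptor DAP12, 15 to 35.2 CPM, 1.23), which passed in none of the 6 fits without 1 library.

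Of the 15 genes of RANK signalling and osteoclast transcription, 7 rose and 1 fell from E14.5 to E15.5, with a median of 0.62. *Fos*, a subunit of AP-1, was the highest of them (2.43 to 8.15 CPM, log2 fold change 1.74, edgeR adjusted p 0.00602), and *Src*, a kinase of the osteoclast's ruffled border that many cells express, fell (156 to 93.9 CPM, -0.73, edgeR adjusted p 0.0087). The 8 calls became 2, 3 and 9 without E14.5 replicates 1, 2 and 3, and 6, 2 and 2 without E15.5 replicates 1, 2 and 3. For that step the 5773 calls among all tested genes became 2320, 3259 and 5816 and then 5353, 2975 and 3010 in the same fits. From E15.5 to E16.5 0 of 15 passed the edgeR test, where 1.41% of tested genes did. In that step 3 had an unadjusted p under 0.05, as 21.8% of tested genes had, and 2 passed with DESeq2. From E14.5 to E16.5 11 rose and 1 fell, where 46.2% of tested genes passed in either direction and 23.4% upwards.

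Of 11 further genes of the resorption machinery, 3 rose and 1 fell from E14.5 to E15.5 and 2 rose from E15.5 to E16.5. *Mmp9*, a matrix metalloproteinase of osteoclasts, had the highest log2 fold change of the list in both steps (39 to 89.5 to 506 CPM, 1.20 and 2.50, edgeR adjusted p 0.0403 and 0.023). *Atp6v1c1*, a subunit of the proton pump in many cells, fell in the first (53.7 to 41.3 CPM, -0.38, edgeR adjusted p 0.0457) and rose in the second (41.3 to 62 CPM, 0.58, edgeR adjusted p 0.0483). The list's medians were -0.08 and 0.50, beside 1.90 and 2.29 for the 10 genes, which include the osteoclast pump subunit *Atp6v0d2* (4.09 and 2.29). The 4 calls of the first step became 0, 1 and 3 without E14.5 replicates 1, 2 and 3 and 2, 1 and 0 without E15.5 replicates 1, 2 and 3. The 2 calls of the second became 1, 0 and 0 without E15.5 replicates 1, 2 and 3 and 0, 1 and 1 without E16.5 replicates 1, 2 and 3.

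Among 5 inhibitors of osteoclast formation, 2 rose from E14.5 to E15.5 and 0 fell. They were *Bcl6* (a transcriptional repressor, log2 fold change 1.31, edgeR adjusted p 0.0267) and *Irf8* (a myeloid transcription factor, 1.03, edgeR adjusted p 0.0125). The 2 calls became 0, 1 and 2 without E14.5 replicates 1, 2 and 3 and 2, 1 and 1 without E15.5 replicates 1, 2 and 3. From E15.5 to E16.5 0 of 5 passed the edgeR test, where 1.41% of tested genes did. In that step 2 had an unadjusted p under 0.05, as 21.8% of tested genes had, and 1 passed with DESeq2. The list's median log2 fold change there was -0.25.

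The genes whose levels most resembled the mean profile of the 10 were sought among 16509 other tested genes with a mean of at least 1 CPM. The measure was Pearson r over the 15 libraries between log2 CPM and the mean of the z-scored osteoclast genes. The 10 highest were *Ptpn22*, *Ccl9* and *Cd72* (r 0.992 each), *Cd5* and *Tyrobp* (0.989 each), *Slc37a2*, *Spi1* and *Pstpip1* (0.988 each), *Aldh3b1* (0.987) and *Csf1r* (0.984). *Ccl9*, a chemokine, went from 1.51 ± 0.448 CPM (SD, n = 3) at E14.5 to 20 ± 6.81 at E16.5 and 33.8 ± 5.36 at P0, and *Slc37a2*, a sugar-phosphate transporter, from 4.2 ± 0.544 to 62.2 ± 25.8 and 79.6 ± 27.5. *Spi1*, which encodes PU.1, went from 3.32 ± 0.786 to 15.4 ± 5.21 and 21.2 ± 6.26 CPM. Of the 10 osteoclast genes, 8 had r of 0.972 to 0.994 with their own mean profile, *Nfatc1* 0.788 and *Calcr* 0.224. That profile includes the gene itself, which raises these values, so they do not compare directly with those of the other genes. These correlations are across libraries that share their stages, and no test was made on them.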

How the data were processed

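Bulk RNA was sequenced from 15 wild-type palate libraries (5 stages, 3 libraries each, pools of 3 embryos per the labels). The deposited values are raw counts of fragments per gene, made by the authors with featureCounts 2.0.1 (paired, reverse-stranded) on GENCODE M18, per the file headers. The submitters' processing notes name cutadapt 3.4, FastQC 0.11.9, Bowtie2, HISAT2 2.2.1, SAMtools 1.12, Subread 2.0.1 and mm10. The table's deposited gene length gave CPM per kb. Positions matched GENCODE M21 (GRCm38) for 97.5% of shared identifiers.

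Counts were filtered with edgeR 4.0.16 filterByExpr by stage (minimum count 10), normalized by TMM and fitted over all 15 libraries (R 4.3.3), with 1 coefficient per stage. The quasi-likelihood F test was adjusted by Benjamini-Hochberg over 22151 genes, threshold 0.05, and the standard error is the log2 fold change over the square root of F. The common biological coefficient of variation was 0.332. CPM used TMM-adjusted totals, log2 CPM a prior count of 2, and a count of 3 marked the detection floor. The test was checked on simulated counts. Alternatives were DESeq2 1.42.0, other scalings, other filters, the replicate number as a block, fits on the compared stages, and leaving out each library.

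The 10 genes and all lists were chosen with earlier results of these data known. From other lists the text names, per step, the called genes with the largest and smallest log2 fold change. From the osteoblast list it also names *Spp1* and *Runx2* in the step from E15.5 to E16.5, where neither was called. The 10 genes with the highest r to the 10 genes' mean profile are named as well.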

Additional observations from a re-analysis of the deposited data

How the results depend on the processing

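The counts of osteoclast genes called kept within 1.5 times their main value under every alternative in all comparisons except E16.5 against E15.5. There the 5 calls became 8 with DESeq2 and 0 with only the libraries of the stages compared, and ranged from 0 to 4 in the fits without 1 library. Over all tested genes the 312 calls of that comparison ranged from 0 to 504 in the fits without 1 library. With fewer libraries the shared spread has fewer degrees of freedom, and its part in these changes was not tested. Over all single-gene results, 1086 kept their direction and side of the threshold, 36 lost a call, 14 gained one and 12 changed sign, none of the last with a call. Across genes, DESeq2 called 967 genes at E14.5 against E13.5 (edgeR 2), 1981 at E16.5 against E15.5 (edgeR 312) and 650 at P0 against E16.5 (edgeR 78).

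The 12 sign changes, in log2 fold changes from -0.45 to 0.21, came with leaving out a library or with 1 scaling. For E14.5 against E13.5 the fits without 1 library ranged from -0.43 to 0.25 for *Ctsk* (-0.03 with all libraries), from -0.16 to 0.51 for *Acp5* (0.19) and from -0.01 to 0.45 for *Tnfrsf11a* (0.21). For P0 against E16.5 they ranged from 0.00 to 0.43 for *Nfatc1* (0.16). For the difference of the middle 2 steps they ranged from -0.63 to 0.01 for *Nfatc1* (-0.32), from -0.60 to 0.39 for *Ctsk* (-0.21) and from -1.32 to 0.97 for *Acp5* (-0.45), and *Itgb3* (0.14) was -0.02 with upper-quartile scaling. The cause was not tested.

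Whether replicate numbers pair the libraries was not tested. Of 30 pairs with the same number, 9 had a correlation of stage-centred levels over 0.1 (mean 0.059, from -0.303 to 0.548). Among 60 pairs with different numbers it was 19 (mean -0.032, from -0.498 to 0.426). Of 15 libraries, 7 correlated best with their own number. With the number as a block, 8 osteoclast genes passed at E15.5 against E14.5 (5860 of all tested genes), 6 at E16.5 against E15.5 (422) and 9 at E16.5 against E14.5 (10389). The block took the calls at E14.5 against E13.5 from 2 to 135 genes and at P0 against E16.5 from 78 to 35. With a prior count of 0.5 the median within-stage r of the gene pairs went from 0.593 to 0.576, and single pairs moved more (*Dcstamp* with *Ocstamp* from 0.795 to 0.576). Depth limits *Dcstamp*, *Ocstamp* and *Atp6v0d2* at E13.5, with 5, 21 and 26 counts over 3 libraries.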

Other observations

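Other cell types of the palate were followed with fixed marker lists, for E16.5 against E14.5 in the edgeR quasi-likelihood test with Benjamini-Hochberg adjustment. In that comparison 46.2% of all tested genes passed in either direction and 23.4% upwards. Whether the counts of any list differ from these shares was not tested. Of 6 endothelial markers 2 rose and 0 fell (median log2 fold change 0.53), and of 5 myogenic and satellite cell markers 2 rose and 0 fell (1.43), their summed level going from 166 to 596 CPM at E14.5 to 2362 to 4001 CPM at E16.5. Of 5 stratified epithelial markers 2 rose and 0 fell (1.27), with a summed level of 252 to 340 CPM at E14.5 and 659 to 2181 CPM at E16.5. Of 5 cartilage markers 2 fell and 0 rose (-1.58), and of 6 palate mesenchyme markers 2 fell and 0 rose (-0.74). Of 5 erythroid markers 1 rose and 2 fell (-0.63).

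Within stages, *Calcr* had r of -0.67 with the mean log2 CPM of the macrophage markers and 0.56 with that of the neuronal markers over the 15 libraries, and *Atp6v0d2* had 0.27 and -0.56. *Itgb3* had r of 0.91 with the 3 pan-haematopoietic markers, which was 0.46 with the log2 of their summed CPM, and -0.02 with the megakaryocyte and platelet markers. These are descriptions over 15 libraries that share depth and composition.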
